A study of Homo sapiens with 6 samples.

Results

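The levels of 10 genes of the semaphorin and plexin families were read in HCT116 cells, a human colorectal carcinoma line, with and without added EPHX2, which encodes soluble epoxide hydrolase. They are the secreted ligands SEMA3A, SEMA3C and SEMA3F, the transmembrane ligands SEMA4B and SEMA4C, the membrane-anchored ligand SEMA7A, and the receptors PLXNA1, PLXNB1, PLXNB2 and PLXNC1. These are 10 of the 38041 genes in the deposited table, taken by gene symbol. The set was chosen by the FPKM of SEMA7A in these same libraries, which was about halved in the EPHX2 cells, so differences between the groups are given here as a description. The overEXP group was stably transfected with EPHX2, and the NC group carried an empty vector by the sample titles, although other labels call these cells untreated and normally cultured. The study's methods describe delivery by lentivirus and selection of infected cells with puromycin. Each group had 3 libraries of total RNA. The study's results speak of 3 cell lines in each group, but no source used here says whether these were derived independently. The spread between the libraries may therefore be technical. All 10 genes were present in the table, and 9 of them had at least 1 FPKM in at least 3 libraries and entered the fit over 12281 genes. FPKM is the number of fragments scaled to exon length and to the mapped reads of the library, so it allows levels of different genes to be set side by side.

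Semaphorins are extracellular guidance proteins that share a sema domain, first studied as signals that steer growing axons and later found in epithelia, vessels and immune cells. Plexins are their receptors. A bound plexin acts on small GTPases and so on integrin adhesion and the actin cytoskeleton. Secreted class 3 semaphorins mostly need a neuropilin beside an A-type plexin, class 4 semaphorins bind B-type plexins directly, and SEMA7A, which is held on the membrane by a glycosylphosphatidylinositol (GPI) anchor, binds plexin C1 and integrins that contain the beta 1 subunit.

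EPHX2 itself had 157, 162 and 181 FPKM in overEXP replicates 1 to 3, against 1.53, 1.96 and 1.5 FPKM in NC replicates 1 to 3. Mitochondrially encoded RNA took 34.9% to 39.9% of summed FPKM in overEXP and 29.6% to 34.6% in NC. Of the 12281 genes tested with limma, 154 were higher and 366 lower at an adjusted p under 0.05, which is 4.23% called in either direction, 1.25% higher and 2.98% lower. Leaving out 1 library gave 416 calls without overEXP replicate 1, 107 without overEXP replicate 2, 476 without overEXP replicate 3, and 112, 52 and 44 without NC replicates 1, 2 and 3. The split was 94 higher and 852 lower after rescaling to TPM, 345 and 359 after median-of-ratios scaling and 330 and 395 after quantile normalization. The median log2 fold change of all genes tested was -0.05 in the fit as deposited and -0.20 after rescaling to TPM. The epithelial genes EPCAM, CDH1, KRT8, KRT18 and KRT19 were all read, at 943 to 1086 summed FPKM in overEXP and 1044 to 1370 in NC. The sum was mostly keratin RNA, and the genes went different ways. CDH1 (log2 fold change 0.59) and EPCAM (0.29) were higher in overEXP and KRT19 (-0.37) lower, each without overlap. CDH1 and EPCAM were highest in overEXP replicate 2. CDH1 had 11.9, 19.2 and 13.8 FPKM in overEXP replicates 1 to 3, against at most 9.81 in NC. EPCAM had 79.6, 110 and 83.3 FPKM there, against at most 76.8 in NC. KRT8 (-0.21) and KRT18 (-0.18) overlapped, and none of these genes passed by limma. overEXP replicate 2 stood apart, because 129 genes had 1 FPKM or more there and under 0.1 in every other library, against 0 to 7 such genes in the other 5. In all, 10 markers of differentiated colon epithelium, among them CEACAM5, CEACAM6 and LGALS4, summed to 327 FPKM in overEXP replicate 2, against 0.412 to 0.643 in the other 5 libraries. Likewise, 7 fibroblast markers summed to 12.9 FPKM in the same library and to 2.37 to 3.79 elsewhere, while leukocyte, endothelial and neural markers summed to at most 8.80, 0.357 and 1.497 FPKM in any library. The fibroblast sum was mostly collagens, with COL1A1 at 5.72, COL3A1 at 2.57 and COL1A2 at 2.41 FPKM in overEXP replicate 2. There LUM had 1.375 FPKM, and THY1, PDGFRB and DCN had 0.390, 0.270 and 0.112. COL1A1 had 2.29 to 3.06 FPKM in the other 5 libraries. The leukocyte sum was mostly the lysosomal gene CD68, and CD3E, the T cell marker, was listed at 0 in 5 libraries.

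SEMA7A (ENSG00000138623) is a minus-strand gene of chromosome 15 (GRCh38, GENCODE v44, 74409289 to 74433958), and its canonical transcript has 14 exons. The 250 bases before the start of this transcript are shown because SEMA7A is the gene on which the choice rests. They are given 5′ to 3′ on the gene's strand as RefSeq has them for GRCh38.p14, chr15:74433959-74434208, with matches to the GC box (GGGCGG on either strand) in capitals.
SEMA7A: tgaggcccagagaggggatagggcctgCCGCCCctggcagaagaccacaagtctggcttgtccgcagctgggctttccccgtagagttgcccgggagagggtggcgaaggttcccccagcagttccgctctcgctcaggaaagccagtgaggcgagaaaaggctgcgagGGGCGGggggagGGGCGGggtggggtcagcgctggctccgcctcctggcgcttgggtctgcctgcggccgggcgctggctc
The window holds 3 GC boxes and is 70.0% G and C, where the median of all RefSeq windows of the same length is 58%. A GC box is present in 42.6% of all 35114 windows. No match to TATAAA (10.7% of windows), CACGTG (6.35%), TGACGTCA (1.65%), TGAGTCA (4.2%) or CCAAT (32%) was found on either strand, and the matched letters do not overlap each other.

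SEMA7A was read at 8.84, 8.13 and 9.30 FPKM in overEXP replicates 1 to 3, against 20.0, 18.5 and 19.4 FPKM in NC replicates 1 to 3. Every overEXP library lay below every NC library, with a gap far wider than the range within either group. The means were 8.76 ± 0.59 in overEXP and 19.3 ± 0.74 in NC (SD, n = 3 libraries each), a ratio of 0.453. On the log2(FPKM + 1) scale the fold change was -1.06 with a standard error of 0.07, and 12 of the 12281 genes tested, SEMA7A included, had a log2 fold change this low or lower. This difference chose the genes, so it carries no test here. It was -1.26 after rescaling to TPM, -0.99 after median-of-ratios scaling and -0.996 after quantile normalization, and -1.01 without overEXP replicate 2. In these bulk libraries fewer cells with SEMA7A RNA and less SEMA7A RNA per cell cannot be told apart.

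**Figure D1:**
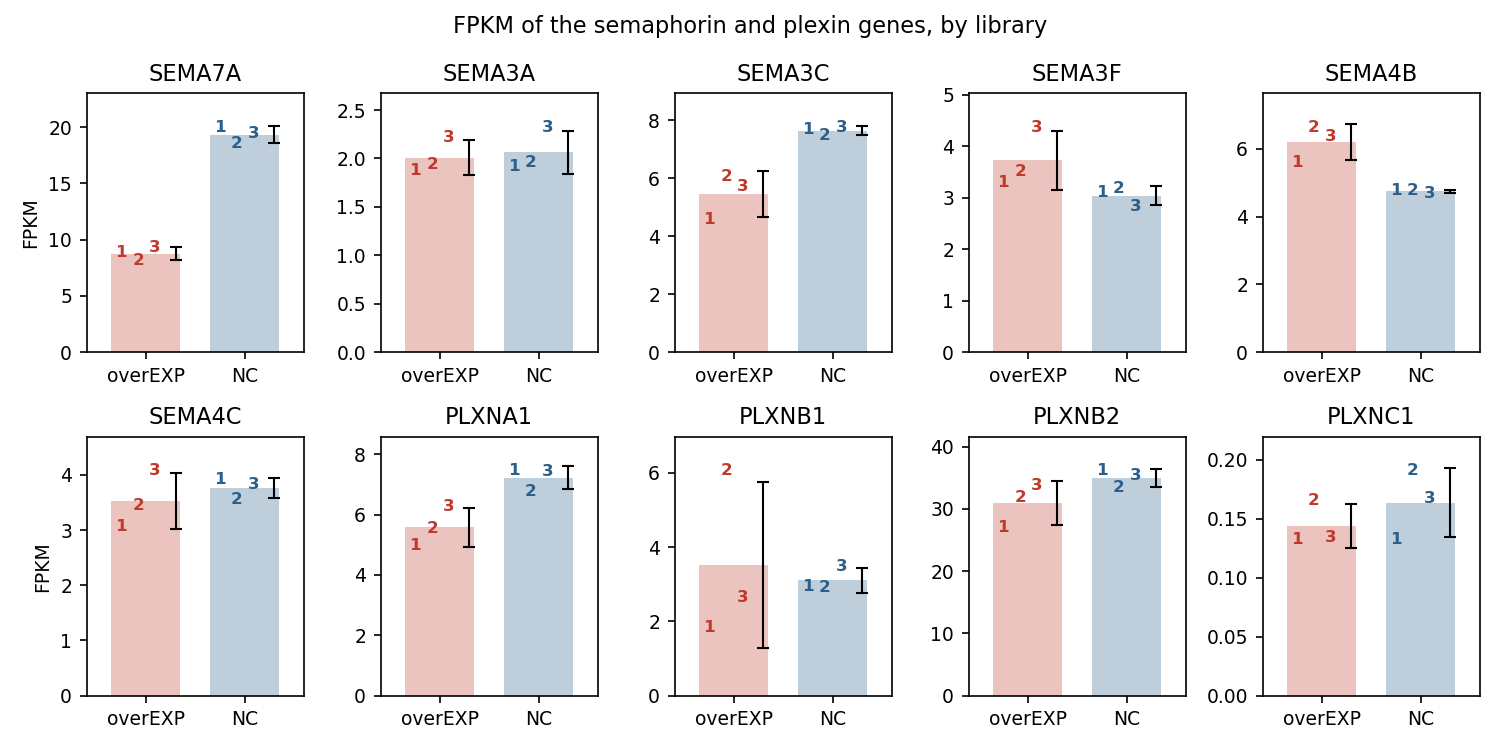
FPKM of the 10 genes in overEXP (left, red) and NC (right, blue). Bars are means and error bars are SD over 3 libraries, the numbers mark the single libraries, and each panel has its own axis from 0. SEMA7A sits at 8.13 to 9.30 in overEXP and 18.5 to 20.0 in NC, and PLXNB1 in overEXP replicate 2 stands at 6.06, away from its group.

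2 further rows of the table lie inside SEMA7A, and both were lower in overEXP as well. The hairpin of MIR6881 is on the same strand in intron 12, with 0 bases between it and the next exon, at chr15:74411357-74411432. Its row held 0, 0.308 and 0.248 FPKM in overEXP, against 1.23, 1.603 and 1.29 FPKM in NC. It entered the fit only through the NC libraries, and a read over the hairpin cannot be told apart from one of unspliced SEMA7A RNA, so its values are given as a description. The hairpin is shown because it marks the intronic position at which these reads fell, with its 2 mature arms, miR-6881-5p and miR-6881-3p, in capitals.
MIR6881: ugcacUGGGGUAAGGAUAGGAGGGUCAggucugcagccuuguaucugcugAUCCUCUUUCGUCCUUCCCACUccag
The other row, the long noncoding RNA ENSG00000286696, lies on the opposite strand in intron 1, from 74429445 to 74431449. It had 0.228, 0.331 and 0.245 FPKM in overEXP, against 0.917, 0.490 and 0.638 FPKM in NC, and did not pass the filter. Whether the counting used strand is not given in the sources used here.

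Genes around SEMA7A had smaller differences. Within 500 kb, 37 other rows were in the table and 15 were tested. Apart from MIR6881, none of these 14 passed by limma, where 4.23% of all genes tested were called. An unadjusted p under 0.05 was found for 2 of the 14, where 6.55% of all genes tested were higher and 16.4% lower. The log2 fold changes of the 14 ran from -0.24 (ARID3B, a DNA-binding protein) to 0.15 (UBL7-AS1), and 12 of the 14 were negative. The median over all genes tested was itself negative, at -0.05. After median-of-ratios scaling LOXL1-AS1, CLK3, MPI and COX5A turned positive, so nothing is read from the count of negative genes. UBL7, a ubiquitin-like protein whose gene is the nearest expressed one, 12.0 kb away, had 19.3, 15.2 and 16.6 FPKM in overEXP, against 21.4, 16.6 and 16.3 FPKM in NC, and the groups overlapped. The libraries did not overlap for PML, the scaffold of nuclear bodies, EDC3, an mRNA decapping factor, CSK, which restrains Src family kinases, and ULK3, a serine/threonine kinase, with log2 fold changes from -0.23 to -0.15 and adjusted p from limma of 0.126 to 0.374. Of all genes tested, 30.9% did not overlap. LOXL1, LOXL1-AS1, CLK3, SCAMP2, MPI, FAM219B and COX5A had overlapping groups and log2 fold changes from -0.16 to 0.05.

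**Figure D2:**
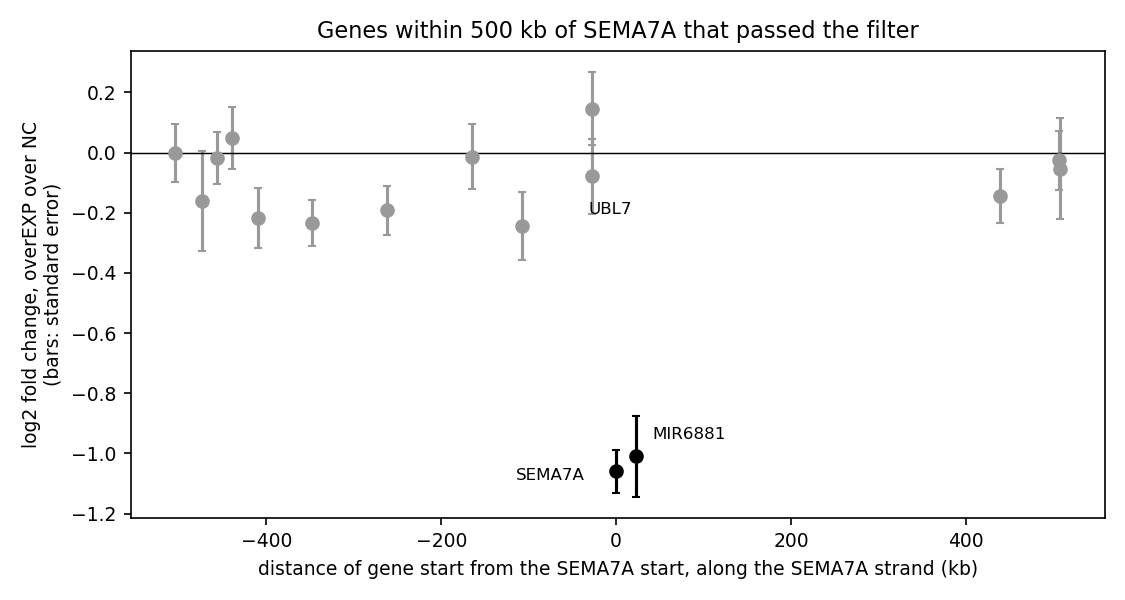
Log2 fold change, overEXP over NC, of the 16 genes within 500 kb of SEMA7A that passed the filter, against the distance of each gene's start from the SEMA7A start. Points are estimates and bars standard errors. SEMA7A and the MIR6881 row inside it (black) lie at about -1, and the other 14 genes (grey) between -0.24 and 0.15. The likeness of the 2 black points depends on the pseudocount of 1. With 0.1 SEMA7A was at -1.13 and MIR6881 at -2.60.

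Among the 20 human semaphorins, SEMA7A had the highest FPKM in each of the 3 NC libraries and the second highest in each of the 3 overEXP libraries, where SEMA6B was first. SEMA7A made up 16.2%, 13.4% and 14.9% of summed semaphorin FPKM in overEXP, against 27.6%, 28.4% and 29.0% in NC. The sum over all 20 was 54.6, 60.8 and 62.4 FPKM in overEXP, against 72.3, 65.2 and 67.0 FPKM in NC. Without SEMA7A it was 45.7, 52.6 and 53.1 FPKM in overEXP, against 52.3, 46.7 and 47.5 FPKM in NC, and these ranges overlapped. Mean levels in overEXP ran from SEMA6B (14.8 FPKM) and SEMA7A (8.76) through SEMA4B (6.21) and SEMA3C (5.45) to SEMA3F, SEMA4C, SEMA3B, SEMA4G, SEMA4F, SEMA3A, SEMA4D, SEMA6C and SEMA3G (1.14). In NC they ran from SEMA7A (19.3) and SEMA6B (13.6) through SEMA3C (7.63) and SEMA4B (4.74) to SEMA6C (1.17). Within overEXP, SEMA4B and SEMA3C overlapped each other, as did each neighbouring pair from SEMA3F to SEMA4F. Within NC the first 4 genes were apart from each other and from the next. The 7 semaphorins under 1 FPKM in every library were SEMA3D, SEMA3E, SEMA4A, SEMA5A, SEMA5B, SEMA6A and SEMA6D.

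**Figure D3:**
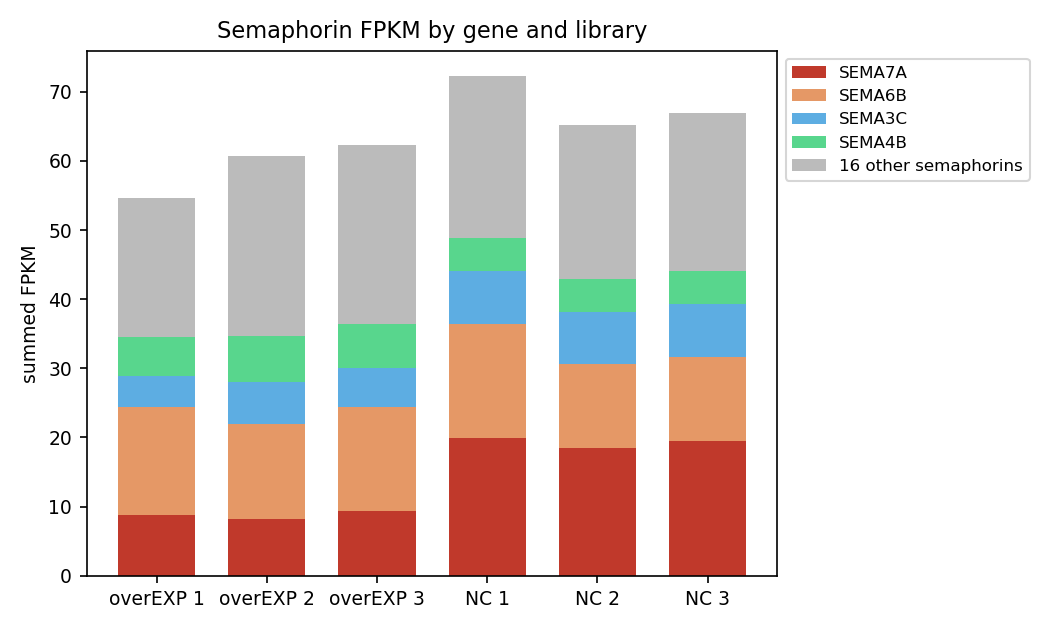
FPKM of SEMA7A, SEMA6B, SEMA3C, SEMA4B and the 16 other semaphorins, stacked for each library (overEXP replicates 1 to 3, then NC replicates 1 to 3). The SEMA7A segment is 13.4% to 16.2% of the column in overEXP and 27.6% to 29.0% in NC.

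Of the 9 genes tested, 6 had a negative and 3 a positive log2 fold change, and their median was -0.08, against -0.05 over all genes tested. In 5 of them the libraries of the 2 groups did not overlap, 3 lower and 2 higher, where 30.9% of all genes tested did not overlap (21.7% lower and 9.23% higher). Since the contrast was used to choose the genes, nothing is read from these counts.

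The secreted ligands differed among themselves. SEMA3C, a guidance factor of neural crest and heart outflow tract, lies on chromosome 7 (80742538 to 80922359, minus strand). It was read at 4.56, 6.07 and 5.71 FPKM in overEXP, against 7.68, 7.46 and 7.76 FPKM in NC. The groups did not overlap, and replicate 1 was the lowest overEXP library. The log2 fold change was -0.43 with a standard error of 0.10. SEMA3F, which signals through neuropilin 2 and repels axons, lies on chromosome 3 (50155045 to 50189075, plus strand). It was read at 3.29, 3.52 and 4.37 FPKM in overEXP, against 3.10, 3.18 and 2.83 FPKM in NC. The groups did not overlap, though replicate 1 of overEXP was only just above the NC libraries, and the log2 fold change was 0.22 with a standard error of 0.10. SEMA3F-AS1, which overlaps it on the opposite strand, had 0.177 to 0.818 FPKM in overEXP and 0.577 to 0.603 in NC. SEMA3A, the founding collapse factor of growth cones, lies on chromosome 7 as well (83955777 to 84492724, minus strand). Its 1.87, 1.94 and 2.21 FPKM in overEXP, against 1.92, 1.95 and 2.32 FPKM in NC, overlapped almost fully, and the log2 fold change was -0.03 with a standard error of 0.09. Across the scaling alternatives the differences of SEMA3C (-0.61 to -0.37) and SEMA3F kept their direction.

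The transmembrane ligands are class 4. SEMA4B is on chromosome 15, like SEMA7A (90160604 to 90229679, plus strand). Its libraries held 5.61, 6.64 and 6.38 FPKM in overEXP, against 4.79, 4.76 and 4.69 FPKM in NC. The NC libraries were nearly equal and all 3 overEXP libraries lay above them. The log2 fold change was 0.32 with a standard error of 0.08, and it ran from 0.23 to 0.38 across the scaling alternatives. SEMA4C, a ligand of plexin B2, lies on chromosome 2 (96859718 to 96870757, minus strand). Its levels were 3.06, 3.44 and 4.07 FPKM in overEXP, against 3.91, 3.55 and 3.82 FPKM in NC. The overEXP libraries spanned the NC libraries on both sides, and the log2 fold change was -0.08 with a standard error of 0.10.

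Among the receptors, PLXNB2, a plexin of epithelia that binds class 4 ligands, had by far the highest level. It lies on chromosome 22 (50274979 to 50307646, minus strand) and took 59.4% to 63.9% of summed plexin FPKM in overEXP and 61.3% to 61.8% in NC. Its libraries held 27.0, 31.9 and 33.8 FPKM in overEXP, against 36.1, 33.4 and 35.4 FPKM in NC. Replicates 1 and 2 of overEXP were below every NC library and replicate 3 was not, and the log2 fold change was -0.18 with a standard error of 0.09. PLXNA1, the partner of neuropilin 1 in SEMA3A signalling, lies on chromosome 3 (126982693 to 127037389, plus strand). PLXNA1 had 4.96, 5.53 and 6.26 FPKM in overEXP, against 7.45, 6.78 and 7.44 FPKM in NC. The groups did not overlap, and the log2 fold change was -0.32 with a standard error of 0.09.

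PLXNB1, the receptor of SEMA4D, lies on chromosome 3 (48403854 to 48430086, minus strand) and varied most between libraries. It was read at 1.84, 6.06 and 2.63 FPKM in overEXP, against 2.93, 2.91 and 3.49 FPKM in NC. Replicate 2 of overEXP, the library with the colon epithelial markers, was above all NC libraries, while replicates 1 and 3 were below them. Its log2 fold change was 0.03 with a standard error of 0.30 over all 6 libraries, -0.35 without overEXP replicate 2 and -0.12 after rescaling to TPM. SEMA3B and SEMA5A were high in that library alone as well. SEMA3B had 2.16, 4.73 and 3.03 FPKM in overEXP, against 2.90, 2.55 and 2.86 FPKM in NC, with a log2 fold change of 0.15 (adjusted p = 0.685 from limma) that was -0.08 without overEXP replicate 2. SEMA5A had 0.779 FPKM in overEXP replicate 2 and at most 0.00504 in every other library. The part of the marker-bearing material in these 3 genes was not tested.

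**Figure D4:**
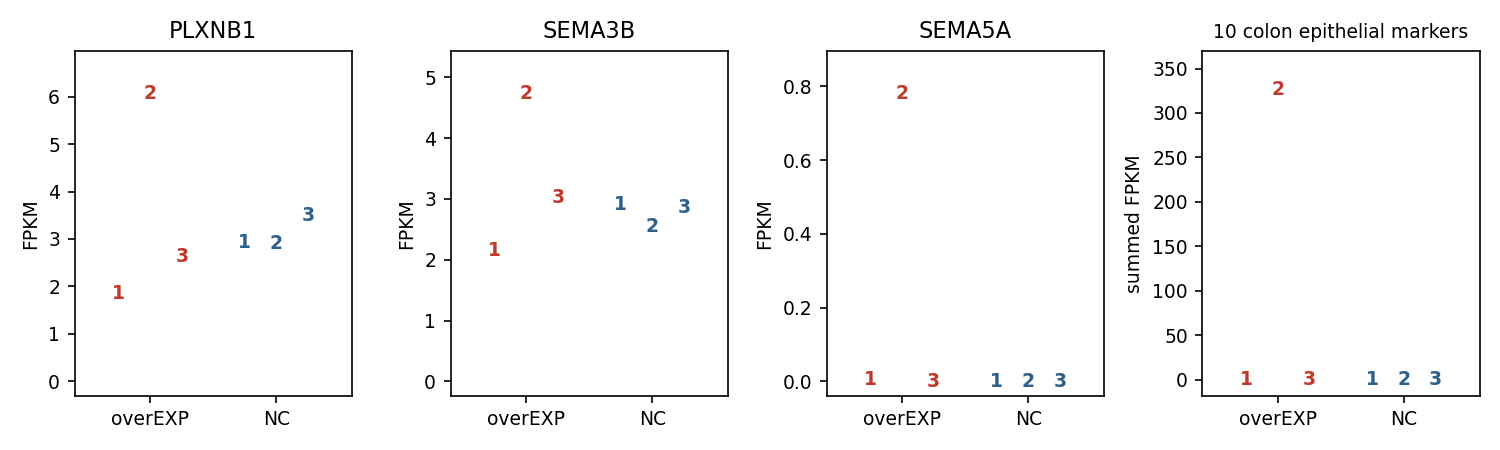
FPKM of PLXNB1, SEMA3B and SEMA5A and summed FPKM of 10 colon epithelial markers in overEXP (left, red) and NC (right, blue). Numbers mark the libraries. In overEXP replicate 2 PLXNB1 was at 6.06, SEMA3B at 4.73 and the markers at 327, above all other libraries.

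The receptors known for SEMA7A were at opposite ends of the scale. PLXNC1, on chromosome 12 (94148577 to 94307675, plus strand), had 0.133, 0.166 and 0.134 FPKM in overEXP, against 0.133, 0.191 and 0.167 FPKM in NC. It was under 0.2 FPKM in all 6 libraries and did not enter the fit. ITGA1, the integrin subunit that pairs with beta 1 in the SEMA7A receptor of monocytes, had 0.139 to 0.203 FPKM in overEXP and 0.115 to 0.138 in NC. ITGB1, the beta 1 subunit, was read at 92.8, 99.1 and 116 FPKM in overEXP, against 94.1, 96.6 and 98.7 FPKM in NC, and overlapped between groups (log2 fold change 0.08, adjusted p = 0.618 from limma). It was above every semaphorin and plexin in each library.

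The other genes of the pathway were taken from a list of semaphorins, plexins, neuropilins and co-receptors, and proteins listed under plexin signalling. The last part holds mostly proteins that act below plexins, and also the protease FURIN. Of 74 such genes besides the 10, 72 were in the table and 55 were tested. By limma 0 were higher and 2 lower, where 1.25% and 2.98% of all genes tested were called. At an unadjusted p under 0.05, 1 was higher and 7 were lower, where 6.55% of all genes tested were higher and 16.4% lower. Of the called genes, PLXNB3 entered the fit only through the NC libraries, in which it was higher, so the count of lower genes rests on RND3. Their median log2 fold change was -0.05, as over all genes tested. Without overEXP replicate 1 only RND3 was called, without overEXP replicate 3 the called genes were RND3 and L1CAM, and none was called without overEXP replicate 2 or without NC replicate 1, 2 or 3.

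The 2 lower genes were PLXNB3 and RND3. PLXNB3, the receptor of SEMA5A, had 0.425, 0.513 and 0.478 FPKM in overEXP, against 1.08, 1.00 and 1.26 FPKM in NC. Every overEXP library lay below every NC library, but the gene is near the limit of the filter and passed it only through the NC libraries. Its log2 fold change of -0.52, with a standard error of 0.10, is therefore given as a description. The ratio of means was 0.423 for PLXNB3 and 0.453 for SEMA7A. With a pseudocount of 0.1 the log2 fold changes were -1.085 for PLXNB3 and -1.13 for SEMA7A. RND3, an atypical small GTPase that loosens actin stress fibres, had 4.34, 5.31 and 5.99 FPKM in overEXP, against 7.65, 8.71 and 7.89 FPKM in NC. Every overEXP library lay below every NC library. The log2 fold change was -0.55 with a standard error of 0.11 (adjusted p = 0.0393 from limma), and the call was lost without overEXP replicate 2 (adjusted p = 0.0982) and without each NC library in turn (adjusted p = 0.1, 0.148 and 0.137 for replicates 1 to 3).

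The 7 other semaphorins tested were SEMA3B, SEMA3G, SEMA4D, SEMA4F, SEMA4G, SEMA6B and SEMA6C. None passed by limma, where 4.23% of all genes tested were called. None had an unadjusted p under 0.05, where 6.55% of all genes tested were higher and 16.4% lower. SEMA6B, a transmembrane ligand of A-type plexins, had 15.5, 13.8 and 15.1 FPKM in overEXP, against 16.5, 12.2 and 12.1 FPKM in NC, and the groups overlapped through NC replicate 1. Its log2 fold change was 0.12 with a standard error of 0.12, and -0.0083 after rescaling to TPM. SEMA4D, the ligand of PLXNB1, had a log2 fold change of 0.15 (adjusted p = 0.376 from limma), and SEMA3G, SEMA4F, SEMA4G and SEMA6C ran from -0.11 to 0.09. Of the 3 other plexins tested, PLXNA3, a partner of neuropilins, had 3.99, 4.98 and 5.16 FPKM in overEXP, against 6.48, 5.32 and 5.96 FPKM in NC. Its groups did not overlap, though the log2 fold change of -0.28 did not pass (standard error 0.11, adjusted p = 0.174 from limma). PLXND1, the receptor of SEMA3E, had a log2 fold change of 0.00347 with a standard error of 0.09. PLXNA2 and PLXNA4 were under 1 FPKM in every library.

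**Figure D5:**
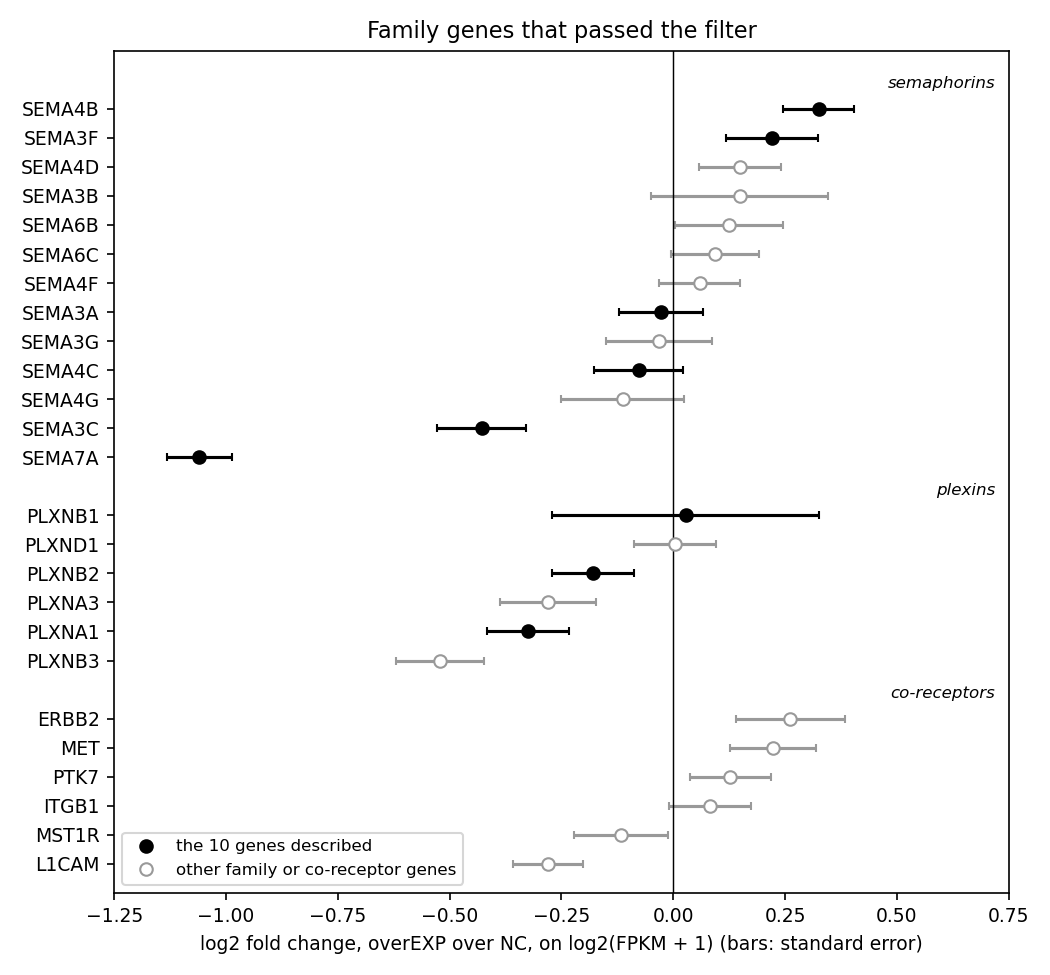
Log2 fold change, overEXP over NC, on log2(FPKM + 1) for the semaphorins, plexins and co-receptors that passed the filter, with standard errors as bars. Filled points are the genes chosen for description and open points the others. SEMA7A lies at -1.06 and all others between -0.52 and 0.32. The gap depends on the pseudocount of 1, since with 0.1 SEMA7A was at -1.13 and PLXNB3 at -1.085.

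Neuropilins, which secreted semaphorins need to bind A-type plexins, were both under 1 FPKM. NRP1 had 0.419, 0.472 and 0.466 FPKM in overEXP, against 0.570, 0.505 and 0.539 FPKM in NC, and NRP2 had at most 0.115 FPKM in any library. Among the co-receptors, MET, the receptor of hepatocyte growth factor that associates with B-type plexins, had 41.3, 46.0 and 52.9 FPKM in overEXP, against 37.5, 40.6 and 41.1 FPKM in NC. Its libraries did not overlap, and its log2 fold change of 0.22 did not pass (standard error 0.10, adjusted p = 0.222 from limma). L1CAM, an adhesion molecule that joins neuropilin 1 in SEMA3A receptors, had 6.06, 6.24 and 7.17 FPKM in overEXP, against 8.22, 7.98 and 8.02 FPKM in NC, with a log2 fold change of -0.28 that did not pass (standard error 0.08, adjusted p = 0.0891 from limma). It passed without overEXP replicate 3 (-0.34, adjusted p = 0.0469 from limma) and not without any other library. ERBB2 and MST1R, receptor tyrosine kinases that associate with B-type plexins, and PTK7, a kinase-like receptor, had log2 fold changes of 0.26 (ERBB2), -0.12 (MST1R) and 0.13 (PTK7) with adjusted p from limma of 0.251 to 0.542. ERBB2 was highest in overEXP replicate 2, at 9.98 FPKM, and its log2 fold change was 0.13 without that library.

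Of 39 genes listed under plexin signalling, RND3 was the only 1 past the threshold, where 2.98% of all genes tested were called lower. At an unadjusted p under 0.05, 1 was higher and 4 were lower, where 6.55% of all genes tested were higher and 16.4% lower. Of the 39, 13 had a positive and 26 a negative log2 fold change, and the median was -0.07. MICAL1, an enzyme that oxidizes actin after plexin activation, had 3.29, 5.08 and 4.38 FPKM in overEXP, against 6.03, 5.78 and 6.12 FPKM in NC. Its log2 fold change of -0.42 did not pass (standard error 0.13, adjusted p = 0.0996 from limma), but after rescaling to TPM it was -0.62 and passed (adjusted p = 0.0431). FYN, a Src family kinase that acts below plexins A, had 1.88, 2.20 and 2.11 FPKM in overEXP, against 1.51, 1.65 and 1.35 FPKM in NC, and its log2 fold change of 0.29 did not pass (standard error 0.09, adjusted p = 0.114 from limma).

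The 6 genes with a profile most like that of SEMA7A were taken by the root mean square distance of log2(FPKM + 1), centred on each gene's mean, over the 6 libraries. They were NOCT, which removes a phosphate from NADP(H), FLNC, an actin cross-linker, PLK2, a polo-like kinase, and the hair keratin-associated genes KRTAP2-1, KRTAP2-2 and KRTAP2-3, with distances from 0.0945 to 0.117. FLNC had 14.4, 14.2 and 16.7 FPKM in overEXP, against 29.2, 27.5 and 29.4 FPKM in NC. NOCT had 7.81, 6.56 and 7.89 FPKM in overEXP, against 14.4, 14.2 and 15.4 FPKM in NC. PLK2 had 18.5, 15.9 and 19.0 FPKM in overEXP, against 33.8, 32.6 and 31.9 FPKM in NC. In each of the 3, overEXP libraries were all at about the same distance below NC as in SEMA7A. The KRTAP2 genes are near-identical copies that may share reads. With 2 groups of 3 libraries this likeness is mostly the group difference itself, which was used to choose SEMA7A.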

How the data were processed

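Total RNA of HCT116 cells was sequenced in 3 overEXP and 3 NC libraries. Per the study's methods, the authors cleaned the reads with FastQC and aligned them to GRCh38 with HISAT2, whose version the submitters' notes give as 2.0.4. StringTie and gffcompare built and joined the transcript sets, and the authors deposited StringTie's FPKM per gene. The annotation release is not given in the sources used here. The table also holds the authors' own fold changes, p-values and q-values, which were not used. Read counts were not used here, so depth is unknown and precision is known only from the spread between libraries.

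Samples were grouped by their GEO description and columns by their names. Genes with at least 1 FPKM in at least 3 libraries were tested on log2(FPKM + 1) by limma (3.58.1, under R 4.3.3) with a variance trend. Tests were two-sided, and p was adjusted by Benjamini and Hochberg over all 12281 genes, with a threshold of 0.05. The fit was tested on simulated data with independent normal noise in each gene. That simulation held no library that stands apart, as overEXP replicate 2 does, so it does not bear on such a case. A pseudocount of 1 understates the change of low genes. Members, gene lists and tests were chosen with earlier results of these data known. Named genes are the 10 members, family and co-receptor genes past the filter, the genes of each further list that passed with the 2 nearest to passing, tested genes within 500 kb of SEMA7A, the 6 most alike profiles and EPHX2. SEMA5A, SEMA3F-AS1 and ENSG00000286696, as well as the genes named as under 1 FPKM, were added after their values were seen. Alternatives were another pseudocount, other filters, scalings, no trend, a replicate block and leaving out each library. Positions are from GENCODE v44, in which 37906 of 38041 IDs were found, and sequences from RefSeq (GRCh38.p14).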

Additional observations from a re-analysis of the deposited data

How the results depend on the processing

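The SEMA7A log2 fold change of -1.06 was -1.13 with a pseudocount of 0.1 and -1.26 after rescaling to TPM, and ran from -1.10 to -1.01 when 1 library was left out. The counts of higher and lower genes over the whole table were 3 and 2 without the filter, 94 and 852 after rescaling to TPM, 345 and 359 after median-of-ratios scaling, 330 and 395 after quantile normalization, and 118 and 213 with the replicate block. Without 1 library they ran from 23 to 199 higher and from 21 to 383 lower, lowest without NC replicate 3. The 2 lower pathway genes were 0 without the filter, 1 with at least 1 FPKM in all libraries and 1 with the replicate block, 3 after rescaling to TPM, which added MICAL1, and 0 to 2 without 1 library. Same-numbered libraries of the 2 groups correlated at 0.358, -0.016 and 0.367 in their deviations from the group means, so the numbers were not taken as pairs, and the block changed the call of PLXNB3 among the pathway genes. Among genes that did not pass, the sign turned after rescaling to TPM for SEMA6B (-0.0083), SEMA4F (-0.056), PLXND1 (-0.13), PTK7 (-0.0059), ITGB1 (-0.059), PIGU (-0.0051) and SCAMP2 (-0.088), after median-of-ratios scaling for SEMA3G (0.0058), LOXL1-AS1 (0.012), CLK3 (0.036), MPI (0.039) and COX5A (0.069), and after quantile normalization for the same 5 (0.014, 0.0023, 0.021, 0.036 and 0.016). Without 1 library it turned within the ranges of SEMA3B (-0.079 to 0.35), SEMA3G (-0.11 to 0.043), SEMA4F (-0.0069 to 0.11), SEMA4G (-0.22 to 0.040), PLXND1 (-0.056 to 0.065), ITGB1 (-0.0082 to 0.15), PIGU (-0.018 to 0.20), LOXL1-AS1 (-0.083 to 0.035), LOXL1 (-0.19 to 0.077), CLK3 (-0.081 to 0.080), MPI (-0.078 to 0.037), SCAMP2 (-0.035 to 0.14), UBL7 (-0.17 to 0.040) and COX5A (-0.051 to 0.098). Of the genes chosen for description, SEMA3A turned after median-of-ratios scaling (0.019) and PLXNB1 after rescaling to TPM (-0.12). Both also turned within their ranges without 1 library, -0.076 to 0.032 for SEMA3A and -0.35 to 0.30 for PLXNB1. The cause of these shifts was not tested. Depth is unknown and low FPKM, as of PLXNC1, cannot be given a counting error.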

Other observations

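Of 13 Eph receptors and ephrins tested, 0 passed by limma, where 4.23% of all genes tested were called. At an unadjusted p under 0.05, 1 was higher and 1 lower, where 6.55% of all genes tested were higher and 16.4% lower. The median log2 fold change of the 13 was 0.06. EPHA2, a receptor of ephrin A ligands with a high level in epithelia, had 44.4, 55.1 and 58.04 FPKM in overEXP, against 69.7, 64.9 and 67.9 FPKM in NC, and every overEXP library was below every NC library (log2 fold change -0.36, standard error 0.10, adjusted p = 0.0909 from limma). After rescaling to TPM it was -0.51 and passed (adjusted p = 0.0418 from limma). EPHB3, a Wnt-driven receptor of the intestinal crypt, had 1.71, 1.73 and 1.77 FPKM in overEXP, against 0.950, 1.38 and 1.22 FPKM in NC (log2 fold change 0.33, adjusted p = 0.105 from limma). Of 6 netrin and slit ligands and receptors tested, 0 passed by limma, where 4.23% of all genes tested were called. At an unadjusted p under 0.05, where 6.55% of all genes tested were higher, 2 of the 6 were higher. These were NEO1, a receptor of netrins and repulsive guidance molecules, with 5.21, 6.28 and 6.40 FPKM in overEXP, against 4.46, 4.47 and 4.58 FPKM in NC (log2 fold change 0.33, adjusted p = 0.0785 from limma), and the netrin receptor UNC5A (log2 fold change 0.28, adjusted p = 0.139 from limma). NEO1 passed without overEXP replicate 1 (adjusted p from limma 0.0307), after median-of-ratios scaling (0.0223) and after quantile normalization (0.0242), and not without any other library.

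SEMA7A reaches the membrane on a GPI anchor. Where 4.23% of all genes tested were called by limma, 0 of 10 genes of the GPI transamidase and of anchor remodelling passed. Where 6.55% of all genes tested were higher and 16.4% lower at an unadjusted p under 0.05, 0 of the 10 were. The 2 nearest to passing were GPAA1 and PIGU, subunits of the transamidase, with log2 fold changes of -0.26 and 0.12. Over the KEGG axon guidance annotation in the deposited table, 106 genes besides the 10 were tested, 0 were higher and 1 was lower by limma, where 1.25% and 2.98% of all genes tested were called. The 1 was PLXNB3, which entered the fit only through the NC libraries. At an unadjusted p under 0.05, 9 of the 106 were higher and 11 lower, where 6.55% of all genes tested were higher and 16.4% lower, and the median log2 fold change was -0.02.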
